A study of Mus musculus with 2 samples.

Results

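Interferon-stimulated genes are the genes that cells switch on when interferon reaches them, and 43 of them were followed here in RNA of mice without PKGI, the cGMP-dependent protein kinase I, and of wild type littermates. The 43 genes were chosen by name, not by their values: 27 type I antiviral genes, 6 GTPases induced by interferon-gamma, 7 transcription factors and 3 receptor chains. Of the 43 genes, 38 had a probe under their own name or an alias given by the rule (Isg15 is also known as G1p2, Igtp as Irgm3), with 57 probes in all, against 19144 genes with a probe on the array. Irf9, Dhx58, Irgm1 and Gbp3 were found only through a RefSeq accession under another name and are given apart, and Xaf1 was not analysed here.

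The data are 2 two-colour Agilent arrays of C57BL/6N mice, each setting RNA of a PKGI knockout (KO) against RNA of a wild type (WT) littermate. The BAT array held untreated brown adipose tissue, with KO in Cy5 and WT in Cy3. The adipocyte array held brown adipocytes that were differentiated in culture from preadipocytes, with KO in Cy3 and WT in Cy5. The labels give no age or sex and name no promoter, Cre, further allele or agent.

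With 1 array per comparison there was no replicate and no test, and no array was repeated with the dyes exchanged, so a dye bias of a single gene and a difference of the KO cannot be told apart. Every ratio below is the log2 of KO over WT, so that -1 is 2-fold lower in KO. Signals are normalized intensities and serve only to compare one gene's own samples. A gene was kept where at least 1 of its probes was well above background in at least 1 channel, which held for 37 of the 38 genes in tissue and for all 38 in cells. In bulk RNA, fewer cells of a type and less RNA per cell cannot be told apart.

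Over the whole arrays, 15340 genes were kept for tissue and 14848 for cells, with medians of 0.00 on both and the central 95% of genes from -0.99 to 0.68 and from -1.29 to 1.00. Repeated spots of one probe had a pooled SD of 0.10 (185 probes) and 0.09 (195 probes) on the log2 scale. Of genes at least 2-fold different, 24.9% were higher in KO on the BAT array, against 59.4% by the scanner software's ratio, 59.3% by the authors' deposited table, 62.3% with no loess and 0.377% after a shift by the spiked-in controls. On the adipocyte array this share was 37.5%, against 47.9%, 47.9%, 13.5% and 17.6%. Prkg1, the gene of PKGI, had 2 probes above background in both channels, with ratios of -1.22 and -1.29 in tissue and of -2.31 and -0.94 in cells; whether they lie in the deleted stretch is not known here. Sex-linked transcripts differed within the pairs, with Xist at 4.41 and the Y-linked Eif2s3y at -6.40 on the BAT array. On the adipocyte array Xist stood at -3.36, and the Y-linked genes at 0.61 (Ddx3y), 0.57 (Uty), 0.07 (Kdm5d) and -0.12 (Eif2s3y). Skeletal muscle markers were at least 2-fold lower in KO for 12 of 12 genes on the BAT array (all genes 2.43%), with a median of -2.79. Adipocyte markers had a median of 0.03 in tissue and of -4.38 in cells, where all 13 of 13 were past 2-fold on the low side (all genes 4.19%) and above background in both channels. The defining adipocyte transcripts were thus present in the culture labelled KO, but far below its WT partner. The part of these differences in the results below was not tested.

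As background, type I interferons bind the receptor of Ifnar1 and Ifnar2, whose kinases start a signal that ends in a complex holding Stat2 and Irf9. This complex binds a short element in the promoters of antiviral genes. Interferon-gamma binds the receptor of Ifngr1 and Ifngr2 and acts in part through Irf1, which switches on the GTPases that attack intracellular parasites and bacteria. Macrophages carry many of these genes at a high basal level, and in fat tissue both fat cells and macrophages respond to interferon.

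The element bound by the complex of Stat2 and Irf9 is written here as GAAA, any 2 bases and GAAA again. It was searched on both strands, so TTTC, any 2 bases and TTTC counted too, with overlapping matches counted apart, in RefSeq's promoters of GRCm38.p6 (250 bases before to 50 after the start). It was present in 1131 of 32851 promoters (3.44%), or 1079 of 27025 genes (3.99%), and in 18 of 42 promoters (42.9%), or 18 of 35 genes (51.4%), of those followed here that have an entry: in 12 of 20 type I antiviral genes, 4 of 5 GTPases, 2 of 7 transcription factors and 0 of 3 receptor chains. The stretches of 8 genes are shown, since these genes carry the element and were measured here: 5 antiviral genes and 2 GTPases with the element in the stretch, by size of their ratio on the adipocyte array, and Isg15, picked after its values were seen because it moved opposite ways on the arrays. Each runs from 150 bases before to 30 after the start, 5′ to 3′ on the gene's strand, with the element in capitals.

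Rsad2, chr12:26456423-26456602, minus strand: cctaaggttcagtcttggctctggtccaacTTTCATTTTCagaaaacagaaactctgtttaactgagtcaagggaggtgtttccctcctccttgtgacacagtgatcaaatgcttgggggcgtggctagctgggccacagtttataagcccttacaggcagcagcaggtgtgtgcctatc
Oas3, chr5:120777630-120777809, minus strand: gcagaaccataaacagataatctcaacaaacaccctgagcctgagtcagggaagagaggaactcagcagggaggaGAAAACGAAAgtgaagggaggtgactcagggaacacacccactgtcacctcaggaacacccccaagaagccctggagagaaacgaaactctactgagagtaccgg
Ifitm3, chr7:141010715-141010894, minus strand: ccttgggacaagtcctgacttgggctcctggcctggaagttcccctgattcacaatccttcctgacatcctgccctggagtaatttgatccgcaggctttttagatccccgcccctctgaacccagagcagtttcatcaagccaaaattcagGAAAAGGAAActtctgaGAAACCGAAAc
Eif2ak2, chr17:78882543-78882722, minus strand: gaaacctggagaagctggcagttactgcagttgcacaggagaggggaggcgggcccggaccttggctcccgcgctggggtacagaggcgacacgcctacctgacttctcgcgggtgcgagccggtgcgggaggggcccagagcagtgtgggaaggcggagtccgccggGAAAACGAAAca
Oas1a, chr5:120907496-120907675, minus strand: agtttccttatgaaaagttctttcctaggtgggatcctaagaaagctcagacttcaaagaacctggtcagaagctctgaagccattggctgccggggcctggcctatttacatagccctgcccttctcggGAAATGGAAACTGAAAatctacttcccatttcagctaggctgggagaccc
Isg15, chr4:156200789-156200968, minus strand: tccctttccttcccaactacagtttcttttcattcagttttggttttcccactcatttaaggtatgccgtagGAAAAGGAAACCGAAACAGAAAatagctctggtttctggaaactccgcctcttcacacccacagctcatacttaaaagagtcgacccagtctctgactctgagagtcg
Igtp, chr11:58199406-58199585, plus strand: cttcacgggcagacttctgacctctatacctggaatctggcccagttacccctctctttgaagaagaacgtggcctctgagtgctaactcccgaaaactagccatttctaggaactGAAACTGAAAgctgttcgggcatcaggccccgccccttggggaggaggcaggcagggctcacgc
Gbp2, chr3:142620513-142620692, plus strand: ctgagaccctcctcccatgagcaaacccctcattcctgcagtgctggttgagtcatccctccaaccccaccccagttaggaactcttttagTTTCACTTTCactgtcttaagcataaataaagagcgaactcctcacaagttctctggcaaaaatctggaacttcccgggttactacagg

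In these stretches Isg15 held 3 overlapping copies, centred 73 to 61 bases before the start. Oas1a held 2 overlapping copies, 15 to 9 bases before it, Ifitm3 held 2, centred 7 to 24 bases after it, and Eif2ak2 held 1, 23 bases after it. Rsad2, Oas3, Gbp2 and Igtp had 1 copy each, at 115, 70, 54 and 29 bases before the start. The element did not sort the genes by their ratio: on the BAT array the 15 kept genes with it had a median of -0.34 and the 15 without it -0.21, and on the adipocyte array 16 with it had -0.60 and 15 without it -0.70. A match is a run of letters, not a binding site.

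The main pattern was a shift of the antiviral genes to the WT side, shallow in tissue and deeper in culture. On the BAT array 22 of 24 kept type I antiviral genes were below 0, where 49.5% of all genes were, with a median of -0.34. None was at least 2-fold lower (all genes 2.43%) or higher (0.808%), and 5 were at least 1.5-fold lower (all genes 7.12%). On the adipocyte array 23 of 25 were below 0 (all genes 50.3%), with a median of -0.70. There, 7 were at least 2-fold lower (all genes 4.19%), 15 at least 1.5-fold lower (9.59%), and none at least 2-fold (2.51%) or 1.5-fold higher (8.47%). The 4 interferon-gamma GTPases were below 0 on both arrays, with medians of -0.27 and -0.39. The BAT shift depended on the processing: with spots that the scanner software marks as outliers kept in the background fit, the medians were -0.068 for the antiviral genes and -0.048 for the GTPases, and with no loess (the dye correction that depends on brightness) they were -0.084 and 0.18, when the median of all genes was 0.25. With no loess, 14 of 37 genes were below 0 on the BAT array and 28 below the median of all genes, against 31 and 32 in the main setting.

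**Figure D1:**
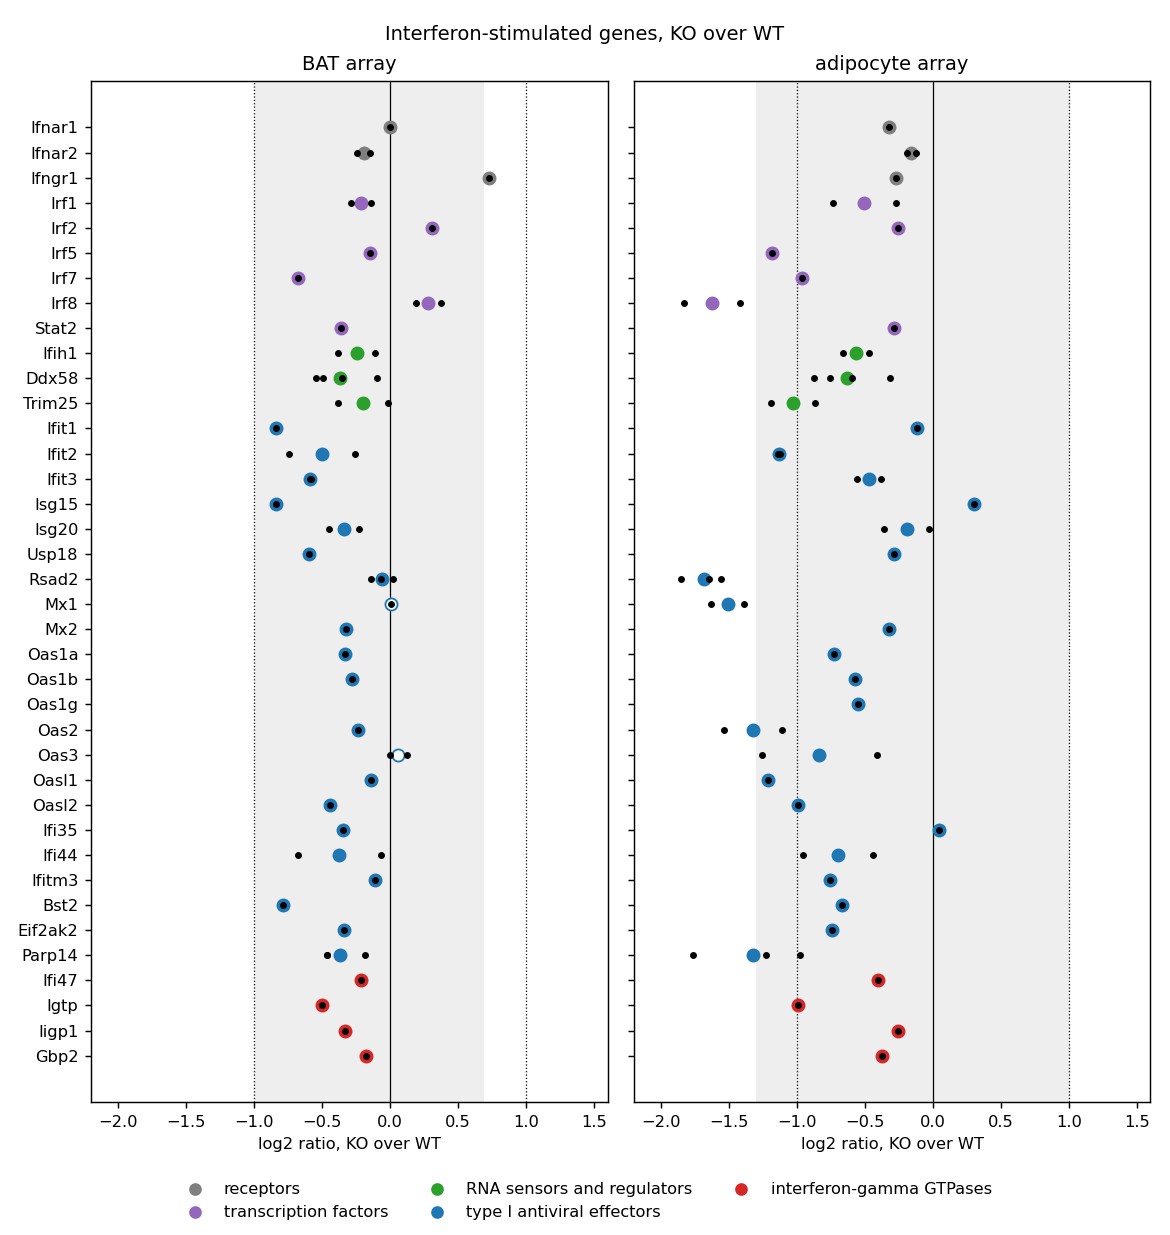
Log2 ratio of KO over WT (x axis) for each of the 38 genes (rows) on the BAT array (left) and the adipocyte array (right). Large circles are gene means, coloured by role and hollow where only 1 channel was well above background, small dots are single probes, the grey band holds the central 95% of all genes and dotted lines mark 2-fold; on the adipocyte array 9 of 38 circles lie at or beyond the left dotted line, on the BAT array none.

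Among the receptor chains no ratio reached 2-fold in the main setting. Ifnar1, a chain of the type I receptor, had signals of 2702 in KO and 2701 in WT tissue and of 3412 and 4275 in cultured cells. Its partner Ifnar2 had 3567 and 4086 in tissue and 3267 and 3641 in cells. Ifngr1, the binding chain of the interferon-gamma receptor, had 50887 in KO and 30720.1 in WT tissue, a ratio of 0.73, against 22969.9 and 27726 in cells, a ratio of -0.27. Ifngr1 was the only one of the 37 genes kept on the BAT array that was at least 1.5-fold higher in KO (all genes 3.66%), with 1 probe behind it, and its ratio was -0.12 after a shift by the spiked-in controls and 1.47 with no loess.

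Of the transcription factors, Irf7 was lower in KO on both arrays. Irf7, the factor that amplifies the type I response, had 421 in KO and 674 in WT tissue, a ratio of -0.68, and 3709 and 7217 in cells, a ratio of -0.96. Irf8, which directs the development of macrophages and dendritic cells, had 482 and 397 in tissue but 655 and 2018 in cells, ratios of 0.28 and -1.62, and its 2 probes lay between -1.83 and -1.42 in cells. Irf5, which acts downstream of Toll-like receptors and is abundant in macrophages, had 318 and 352 in tissue and 852 and 1930.2 in cells, ratios of -0.15 and -1.18. Irf5 and Irf8 were the 2 of 6 kept transcription factors at least 2-fold lower in KO cells (all genes 4.19%), with Irf7 close at 1.95-fold. Neither Irf5 nor Irf8 reached 1.5-fold in tissue, where 7.12% of all genes were at least 1.5-fold lower.

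The remaining factors had smaller ratios. Irf1, the factor that carries the interferon-gamma response, stood at -0.22 in tissue and -0.50 in cells, where its 2 probes gave -0.74 and -0.27. Irf2, which competes with Irf1 for the same element, stood at 0.31 and -0.25. Stat2, a subunit of the complex named above, had 1621 and 2082 in tissue and 3529 and 4292 in cells, ratios of -0.36 and -0.28.

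The sensors of viral RNA were below 0 on both arrays. Ifih1, also known as MDA5, which recognises long double-stranded RNA, had 280.2 in KO and 332 in WT tissue and 1908 and 2821 in cells, with ratios of -0.25 and -0.56. Ddx58, known as RIG-I, which recognises short RNA ends, had 209 and 271 in tissue and 1268 and 1969 in cells, ratios of -0.37 and -0.63, and all 4 of its probes were below 0 on both arrays. Trim25, a ubiquitin ligase that activates RIG-I, had 2281 and 2618 in tissue and 2286 and 4666 in cells. Trim25 was thus 2.04-fold lower in KO cells, with probes at -1.19 and -0.87, while in tissue it stood at -0.20.

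The effectors that were lowest in KO tissue were largely not those lowest in KO cells. Ifit1, which binds viral RNA caps, had 285 in KO and 511 in WT tissue, a ratio of -0.84, but 18689 and 20247 in cells, a ratio of -0.12. Isg15, the ubiquitin-like modifier, had 1152 and 2059 in tissue, also -0.84, and 31647 and 25698 in cells, a ratio of 0.30. KO was the lower sample in tissue for both, and in cells Isg15 was the higher one. The single Isg15 probe is placed on chromosome 17 (44534906 to 44534965) by the array file, whose build is not given, while RefSeq has the gene on chromosome 4, so what this probe reads is uncertain. Usp18, the protease that removes Isg15, stood at -0.60 in tissue, with 873 and 1320.5, and at -0.28 in cells, with 17216 and 20970.3.

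Bst2 was low in KO on both arrays. Bst2, or tetherin, which holds budding virus at the cell surface, had 6874 in KO and 11853 in WT tissue and 58177 and 92609 in cells, ratios of -0.79 and -0.67. In the main setting Bst2 and Irf7 were the only 2 of 37 genes at least 1.5-fold lower on both arrays (5.41%, all genes 1.25%). By the scanner software's ratio and by the authors' table the 2 were Irf7 and Ifit2. With an offset of 0 or the brightest probe alone, Ifit2 joined Bst2 and Irf7. On the BAT array Irf7 stood at -0.13 with outlier spots kept, and with no loess Bst2 stood at -0.18 and Irf7 at -0.31, so that none of the 37 was 1.5-fold lower on both arrays. Ifit3, a partner of Ifit1, had 443 and 665 in tissue and 16802 and 23249 in cells, ratios of -0.59 and -0.47. Its 2 probes agreed closely in tissue, at -0.59 each. Ifit2, of the same family, had 169 and 239 in tissue and 981 and 2148 in cells, ratios of -0.50 and -1.13, with both probes at -1.14 and -1.13 in cells.

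In cultured cells the 2-fold lower effectors were led by Rsad2. Rsad2, or viperin, which makes a chain-terminating nucleotide against viral polymerases, had 2718 in KO and 8734 in WT cells, a ratio of -1.68, and its 3 probes lay between -1.85 and -1.56. In tissue it had 1368 and 1429, a ratio of -0.06, and the sign turned with no loess, with outlier spots kept and with the brightest probe alone. Mx1, a dynamin-like GTPase against influenza whose gene is known to be defective in C57BL/6 mice, had 800.0 and 2276 in cells, a ratio of -1.51. In tissue its WT signal was not well above background, at 103 in both samples.

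The oligoadenylate synthetase family, which activates RNase L on sensing double-stranded RNA, was below 0 in KO cells for all 7 genes, under every setting tried. Oas2 had 591 in KO and 695 in WT tissue and 1386 and 3470.2 in cells, ratios of -0.24 and -1.32. Oasl1, which has lost the enzyme activity and restrains Irf7 translation, had 372 and 411 in tissue and 3426 and 7932 in cells, ratios of -0.14 and -1.21. Oasl2 had 1463 and 1993 in tissue and 17446 and 34659 in cells, ratios of -0.45 and -0.99. All 3 were past 1.5-fold in cells and none was in tissue. Oas1a stood at -0.33 in tissue and -0.73 in cells, and Oas1b at -0.28 and -0.58. Oas1g stood at -0.55 in cells and was not well above background in tissue. These 3 are related genes whose probes may read each other's RNA. Oas3 stood at -0.83 in cells, with its 2 probes at -1.26 and -0.41, and its WT tissue signal was not well above background.

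Parp14, an ADP-ribosyltransferase, had 666 in KO and 862 in WT tissue and 1062 and 2659 in cells, ratios of -0.37 and -1.32. All 3 of its probes were below 0 on both arrays, from -1.76 to -0.98 in cells. Ifitm3, which blocks virus entry at endosomes, had 11925 and 12887 in tissue and 61571 and 104094 in cells, ratios of -0.11 and -0.76. Eif2ak2, the kinase PKR that stops translation, stood at -0.34 and -0.74, and Ifi44 at -0.37 and -0.70. These 4 genes thus had the larger difference in cells.

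The remaining effectors differed little. Mx2, the other Mx GTPase, stood at -0.33 in tissue and -0.32 in cells. Isg20, an exonuclease of single-stranded RNA, stood at -0.34 and -0.19. Ifi35 had 1703 and 2169 in tissue, a ratio of -0.35, and 11320.4 and 10991 in cells, a ratio of 0.04. Isg15 and Ifi35 were the 2 genes above 0 on the adipocyte array, and both were below 0 there with no loess (Ifi35 also after the spiked-in shift).

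**Figure D2:**
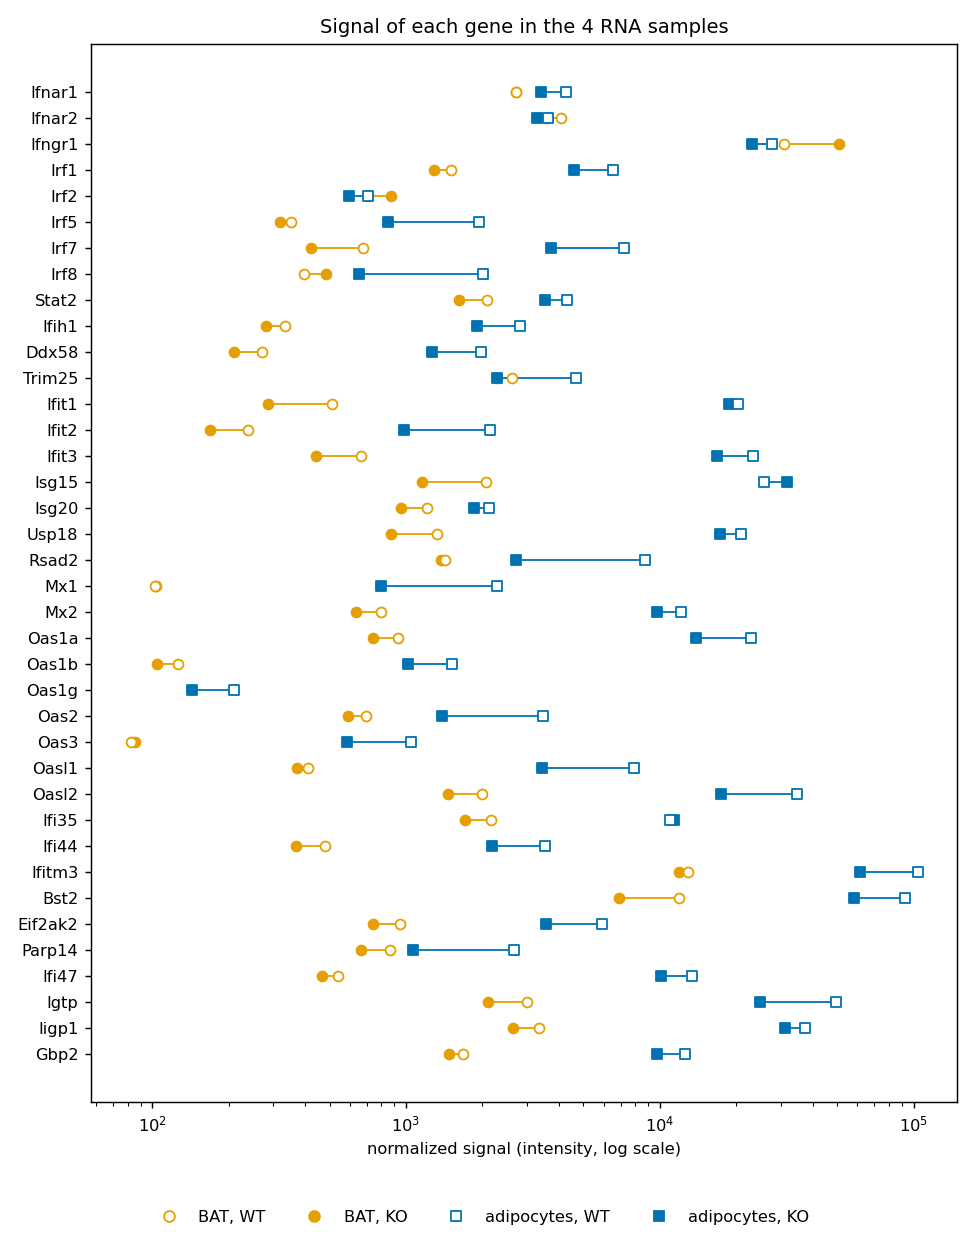
Normalized signal (x axis, log scale) of each gene (rows) in the 4 RNA samples: circles are tissue, squares are cultured cells, filled symbols KO and open symbols WT, with a line joining the pair of one array. Rows are not comparable with each other; for most genes the squares lie far to the right of the circles, and the filled symbol lies left of the open one.

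The interferon-gamma GTPases were led by Igtp on both arrays. Igtp, an immunity-related GTPase that guards membranes against parasite vacuoles, had 2111 in KO and 2987 in WT tissue and 24875 and 49577 in cells, ratios of -0.50 and -0.99. Iigp1, which breaks open such vacuoles, had 2644 and 3337 in tissue, a ratio of -0.34, and -0.26 in cells. Ifi47 had 466 and 539 in tissue and 10127 and 13403 in cells, ratios of -0.21 and -0.40. Gbp2, a guanylate-binding protein that coats the vacuoles, stood at -0.18 and -0.37. KO was the lower sample for all 4 genes on both arrays, with Igtp, at 1.99-fold lower in cells, the only one past 1.5-fold. With no loess all 4 turned above 0 on the BAT array, and Gbp2 did so too with outlier spots kept.

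The genes found only by accession lay on the same side by the mean of their probes. Gbp3, which the array file names Gbp4, had 3726 in KO and 5849.9 in WT tissue and 28167 and 53255 in cells, ratios of -0.65 and -0.92. Irgm1, a regulator of the other immunity-related GTPases, stood at -0.45 and -0.35, with its 3 probes in tissue between -0.69 and -0.03. Irf9, the DNA-binding subunit of the complex named above, stood at -0.20 and -0.09, and in cells its 2 probes lay on both sides of 0, at -0.24 and 0.06. Dhx58, or LGP2, a regulator of RIG-I and MDA5, stood at -0.36 and -0.47.

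Probes of one gene mostly pointed the same way. Of the 57 probes, 54 were kept on the BAT array, of which 46 were below 0, and 55 of 57 were below 0 on the adipocyte array, where 17 were at least 2-fold lower. Counted by gene, 49.5% and 50.3% of all genes were below 0, and 4.19% were at least 2-fold lower on the adipocyte array. The share over all probes is not given here. Of 13 genes with several kept probes on the BAT array, 10 had all of them below 0, and on the adipocyte array 15 of 15 did. The median SD between the probes of a gene was 0.16 and 0.23. Probes of a gene share the RNA and are no replicates of the comparison.

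Over both arrays, 29 of the 37 genes kept on each were below 0 on both (78.4%), where 24.9% of all 14029 genes were, and none was above 0 on both, where 24.8% of all genes were. With no loess 14 of 37 were below 0 on both (all genes 13.01%), and 27 were below the median of all genes on both (all genes 18.6%). The 2 arrays held different RNA and share no control sample. The genes with the lowest ratios nonetheless differed: Ifit1 and Isg15 in tissue, and Rsad2, Irf8, Mx1, Oas2 and Parp14 in cells.

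**Figure D3:**
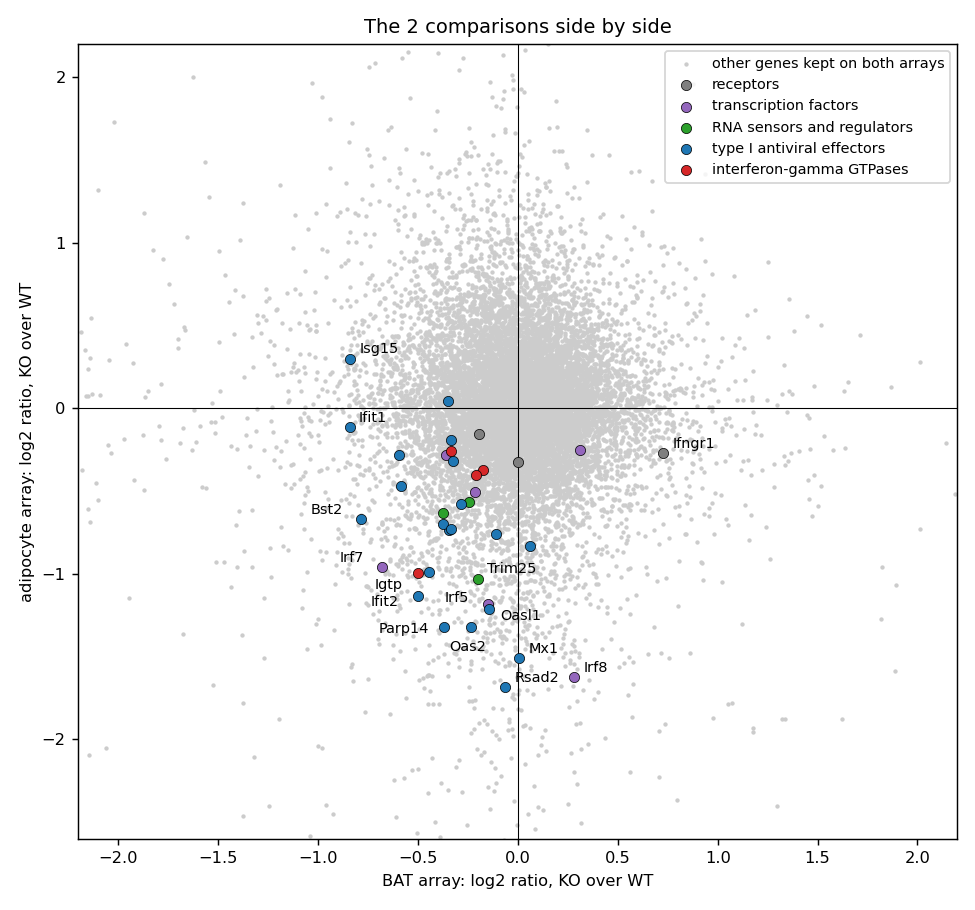
Log2 ratio of KO over WT on the BAT array (x axis) against the adipocyte array (y axis), with one point per gene kept on both arrays; coloured points are the 37 interferon-stimulated genes by role, grey points are other genes, and 115 of the 14029 genes lie beyond the axes. 29 of the 37 coloured points lie in the lower left, below 0 on both axes, and none in the upper right.

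The signal of these genes was also set between the arrays, tissue against culture, as the mean of both channels. Ifit1 was 51.0-fold brighter on the adipocyte array, Ifit3 36.4-fold, Ifi47 23.2-fold, Oas1a 21.4-fold and Isg15 18.5-fold. Of the type I antiviral genes, 23 of 25 were at least 2-fold brighter there (all genes 17.7%) and 13 at least 8-fold (2.34%), and of the GTPases 4 of 4 and 3 of 4. Among antiviral genes well above background in all 4 samples, 20 of 22 were at least 2-fold and 12 at least 8-fold brighter, while Mx1, Oas3 and Oas1g, the other 3, were kept without a WT tissue signal above background. None of either list was at least 2-fold dimmer there (all genes 16.1%). Receptor chains differed by under 2-fold, with a median of -0.15, but this turned with the scaling: the median was 0.59 with median scaling, where Ifnar1 was past 2-fold brighter (1.27), and 0.25 with the scanner software's signals, where Ifngr1 was past 2-fold dimmer (-1.004). The median of the antiviral genes was 3.02 on the log2 scale, 3.30 with median scaling and 4.07 with the scanner software's signals. Among the 22 above background in all 4 samples it was 3.03 in the main scaling. These alternatives were chosen after seeing the data. The arrays were hybridised apart, and 16 of 18 macrophage markers were also at least 2-fold brighter on the adipocyte array, with a median of 2.33; their part in the result was not tested.

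Macrophage markers were lower in KO cells, and in tissue 9 of 18 were below 0 (all genes 49.5%). On the adipocyte array 18 of 18 were below 0 (all genes 50.3%) and 14 at least 2-fold lower (all genes 4.19%), with a median of -1.42. Their summed signal was 73632 in KO and 269246 in WT. Of the brightest, Ctss, a lysosomal protease, stood at -2.92, Lyz2, or lysozyme, at -2.06, Tyrobp, an adaptor of myeloid receptors, at -1.38, and Mrc1, the mannose receptor, at -0.98. Among the dimmer ones Adgre1, or F4/80, stood at -1.76 and Csf1r, the receptor for the macrophage growth factor, at -1.83. None of the 18 was at background in either sample. Their part in the lower antiviral signals of KO cells was not tested. On the BAT array the macrophage median was -0.00, with 0 of 18 at least 1.5-fold different (all genes 7.12% lower and 3.66% higher). Their summed signals there were 26186 and 26837, and single markers ran from -0.45 (Aif1) to 0.29 (Cd163). In tissue, markers of endothelium had a median of -0.31, with 8 of 9 below 0 (all genes 49.5%), none past 1.5-fold and summed signals of 81138 in KO and 105348 in WT. Brown fat markers had a median of -0.72 in tissue, with 4 of 8 at least 2-fold lower (all genes 2.43%), 1 higher (all genes 0.808%) and sums of 312827 and 379324. Skeletal muscle markers, lower in KO as given above, had sums of 81874 and 453582. The part of these tissue markers in the antiviral shift was not tested. The markers of T, B and NK lymphocytes had medians of -0.08 over 15 kept genes in tissue and of -0.05 over 7 in cells. Only 3 of these markers were well above background in all 4 samples. In tissue 1 of them, Cd3g, was at least 2-fold lower, at -1.05 (all genes 2.43%). The list of plasmacytoid dendritic cells, the main interferon producers, had medians of -0.34 and 0.15 over 6 kept genes, of which Ly6d stood at -0.50 and 0.33 and Tcf4 at 0.12 and -0.03, with Bst2 in that list too. Cox6a2 of that list, which skeletal muscle also expresses, stood at -2.86 and 1.1.

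The signalling genes around these targets were mostly near 0. The list of 10 receptor, kinase and STAT genes had medians of -0.07 and -0.05, with none at least 2-fold different. Ifngr2, the signalling chain of the interferon-gamma receptor, stood at -0.34 and 0.27, and Ptpn6, a phosphatase of blood cells that restrains this signalling, at 0.02 and -0.85, where its 3 probes lay between -1.79 and 0.02.

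The interferons themselves were dim. Of 19 ligands and lambda receptor genes, 9 were kept in tissue and 11 in cells, with medians of 0.05 and -0.04. Ifna9 was the only one at least 2-fold different, with 406 in KO and 185 in WT tissue, a ratio of 1.14 from 1 probe, and 210.4 and 187 in cells. Ifnb1, the first interferon made on infection, was kept only in cells, with 134 and 154, and so was Ifng, with 105 and 108. In tissue Ifnl3, a lambda interferon, had 105 and 200.01, a ratio of -0.93, and Ifne, an epithelial interferon, had 94.2 and 175, a ratio of -0.89. No kept interferon was past 2-fold on the low side in KO.

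Upstream of the interferons, the sensing genes had a median of -0.19 in tissue (14 genes, none at least 2-fold different) and of -0.46 in cells. There 14 of 15 were below 0 (all genes 50.3%) and 2 at least 2-fold lower (all genes 4.19%), while Sting1, the adaptor of DNA sensing, stood at 0.29. Tlr7, the endosomal sensor of single-stranded RNA, had 1071 and 3413 in cells, a ratio of -1.67. Zbp1, a sensor of Z-form nucleic acid, had 4458 and 12492, a ratio of -1.49. In tissue Irf4, a factor of immune and brown fat cells, stood at -0.65, and Tlr9, the sensor of DNA, at 0.61.

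A second list held 47 other interferon-induced genes. One of them, Gbp4, shares a probe with Gbp3 above, and without it the counts below were 32 of 39 and 39 of 42, with medians of -0.24 and -0.69. On the BAT array 33 of 40 kept genes were below 0 (all genes 49.5%), with a median of -0.25, and 1 was past 2-fold on the low side (all genes 2.43%) and none on the high side. On the adipocyte array 40 of 43 were below 0 (all genes 50.3%), with a median of -0.71, and 8 were past 2-fold on the low side (all genes 4.19%) and none on the high side. Lgals3bp, a secreted glycoprotein, stood at -2.24 in cells, with 16906 in KO and 80070.0 in WT. Epsti1 stood at -1.77, Rnf213, a large ubiquitin ligase, at -1.61, Cmpk2, a mitochondrial nucleotide kinase next to Rsad2, at -1.48, Ifi204, a DNA sensor, at -1.20, and Parp12 at -1.07. In tissue Slfn5 stood at -1.18, with 239 and 539.7.

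**Figure D4:**
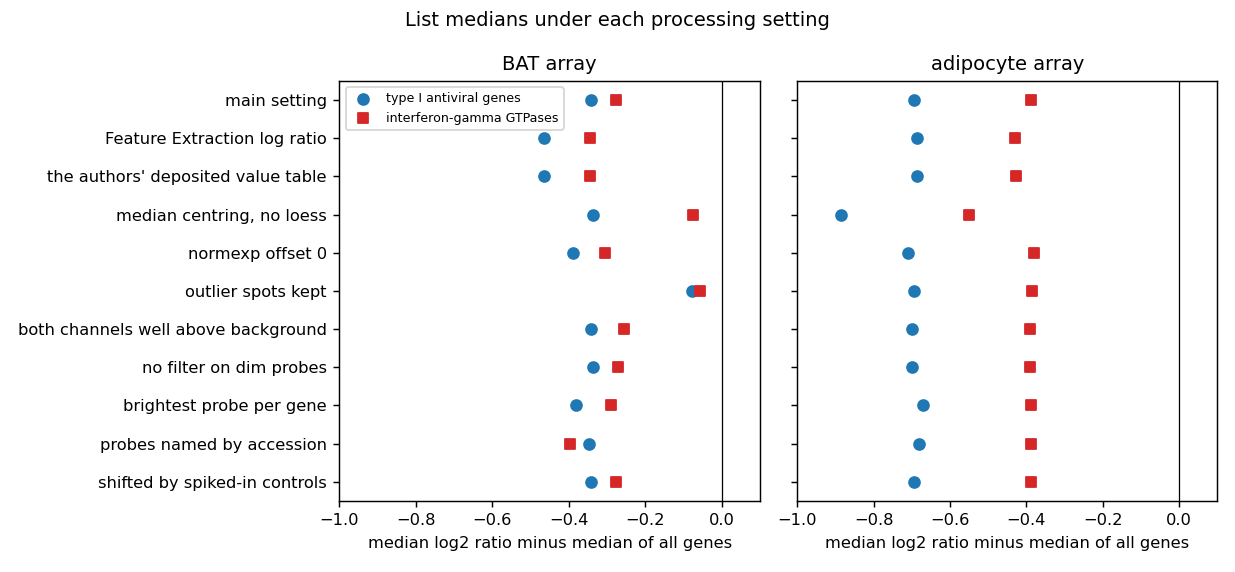
Median log2 ratio of the type I antiviral genes (circles) and interferon-gamma GTPases (squares) minus the median of all genes (x axis) under the main setting and 10 other processing settings (rows), on the BAT array (left) and the adipocyte array (right). All medians lie left of 0, and on the BAT array they are closest to it with outlier spots kept, at -0.077 and -0.057. The spiked-in shift moves every gene alike, so its points repeat the main setting by construction. The authors' table holds nearly the same ratios as the scanner software's, so these 2 rows are not separate checks.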

How the data were processed

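Per spot and dye, the deposited intensity (mean signal, and the median of the local background) came from Agilent Feature Extraction 9.5.1.1 (protocol GE2-v5_95_Feb07), per the file headers. The deposited files also hold processed intensity and a log10 ratio (red over green), and the authors' deposited value table holds log10 ratios of KO over WT. The log2 ratios were computed here. A second copy of each array was not used. For the probe positions, the genome build was not given in the sources used here.

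Spots that the scanner software marks as outliers (1215 and 203 gene spots on the BAT and adipocyte arrays) were left out. Normexp background correction (offset 50) was run in limma 3.58.1 under R 4.3.3, followed by loess within each array with weight 0 for controls, and by Aquantile for signals. Probes of a gene were averaged. Of all gene spots, 74.1% were well above background in KO and 63.1% in WT on the BAT array, and 68.1% and 70.1% on the adipocyte array. The steps were checked on simulated data. Saturated spots (4 on the BAT array) were kept. "Main setting" means these steps.

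Genes and lists were chosen with earlier results of these data known. All 38 genes with a kept probe were named, with Prkg1, up to 6 genes past 2-fold of each pathway list (or the 2 largest) and up to 4 markers of a list by brightness. Ifnb1, Ifng, Adgre1, Csf1r and the Isg15 promoter were picked after their values were seen. Alternatives changed 1 choice at a time. With 1 array per comparison, no test, interval or leave-one-out was possible. 1 gene of the signalling list is not reported here.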

Additional observations from a re-analysis of the deposited data

Results flagged for a closer look

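4 genes lay on opposite sides of 0 on the arrays, each by over 2 SD of repeated spots, and the difference between arrays was not tested. Opposite signs alone were seen for 8 of 37 genes (21.6%) and for 50.3% of all genes. Ifngr1 stood at 0.73 in tissue and -0.27 in cells. Irf2 stood at 0.31 and -0.25, Irf8 at 0.28 and -1.62, and Isg15 at -0.84 and 0.30. Each lost the opposition under 1 setting: after the spiked-in shift Ifngr1, Irf2 and Irf8 stood at -0.12, -0.53 and -0.56 in tissue, and with no loess Isg15 stood at -0.15 in cells. Both dye orientation and material change between the arrays, so they cannot be told apart here.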

How the results depend on the processing

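Of the list medians and 2-fold counts recomputed under the alternatives, 101 kept their value within the spread, 18 moved and 1 reversed. Values of single genes and of levels were less stable: 494 kept theirs and 260 moved. Of the values over all genes, 20 kept theirs and 20 moved. With no loess, the antiviral median was -0.084 in tissue and -1.14 in cells, where 16 genes were at least 2-fold lower (all genes 8.26%). The GTPase medians with no loess were 0.18 (reversed) and -0.81, with 1 GTPase at least 2-fold lower in cells (all genes 8.26%). That setting moved the median of all genes by 0.25 and -0.26, and relative to it the antiviral medians were -0.34 and -0.88 and the GTPase medians -0.075 and -0.55. With outlier spots kept, the BAT medians were -0.068 and -0.048; the cause was not tested. A shift by the spiked-in controls moved all genes by -0.84 and -0.22, which gave antiviral medians of -1.18 and -0.92 with 19 genes at least 2-fold lower in tissue (all genes 29.3%), and GTPase medians of -1.12 and -0.61 with 4 and 1 at least 2-fold lower (all genes 29.3% and 6.45%). Naming probes by accession added 2 GTPases and gave a BAT median of -0.39. The scanner software's ratio, the authors' table and an offset of 0 each put 1 antiviral gene at least 2-fold lower in tissue (all genes 6.08%, 6.08% and 5.34%). On the BAT array 28 to 32 of 37 genes lay below the median of all genes in the settings that kept 37, and on the adipocyte array 36 or 37 of 38. Over all genes, the main counts were 373 lower and 124 higher in tissue, against 97 to 4497 and 17 to 1366, and 622 lower and 373 higher in cells, against 596 to 1227 and 192 to 863. No paired analysis was possible because each group has 1 sample. Low signal over background limits Mx1, Oas3 and Oas1g in tissue.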
